A study of Homo sapiens with 3 samples.

Results

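The 10 genes described here are the 4 Notch receptors NOTCH1, NOTCH2, NOTCH3 and NOTCH4, the Jagged ligands JAG1 and JAG2, the Delta-like ligands DLL1, DLL3 and DLL4, and the target gene HEY1. They were chosen by name, and each matched 1 of the 26485 entries of a gene count table. The table holds 1 group of 3 RNA libraries, described as biological replicates, from CAMA1, a widely used cell line of human breast cancer, positive for the estrogen receptor and with an amplified FGFR1 gene. The cells of all 3 libraries were below passage 10 and had spent 48 h in medium deprived of estradiol, and no treated or estradiol-fed group was analysed here. The libraries come from 1 cell line, so their spread does not describe differences between tumours. Levels are given in TPM, in which each count is divided by gene length and each library is scaled to the same total, so that genes can be compared with one another. Errors are SD over the 3 libraries (n = 3).

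Notch receptors are membrane proteins that are switched on by ligands on a neighbouring cell. Ligand binding exposes the receptor to an ADAM protease and then to gamma-secretase, and the freed intracellular part enters the nucleus, where it joins the DNA-binding protein RBPJ and a Mastermind coactivator at target genes such as those of the HES and HEY families. In the mammary gland the pathway takes part in the choice of the luminal epithelial fate.

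The libraries held 26473939, 26592335 and 30745412 counts in replicates 1, 2 and 3. All 7 luminal epithelial markers were detected, a word used here for genes with 10 or more counts in every one of the 3 libraries, and ranged from 30.1 TPM for ESR1 to 3256 TPM for KRT19. None of 5 endothelial markers was detected, and their levels summed to 0.317, 0.178 and 0.0898 TPM in replicates 1, 2 and 3. Of 5 fibroblast markers COL1A2, LUM and DCN had no count in any library while COL1A1 stood at 10.5 TPM, and of 5 immune markers only LYZ (6.48 TPM) and CD68 (3.08 TPM) were detected. Of 5 basal and myoepithelial markers ACTA2 (31.7 TPM), the basal keratin KRT14 (1.48 TPM) and TP63 (0.682 TPM) were detected, while the basal keratin KRT5 had 4 counts in each library and MME was not detected.

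NOTCH2 has partial copies elsewhere on chromosome 1, the NOTCH2NL genes, which carry its first exons and limit how surely its reads can be placed. Exon 3 of NOTCH2, which is wholly coding, is shown beside the matching exon of NOTCH2NLA because it lets the likeness be seen. Both are GENCODE release 29 transcript sequences on the minus strand of GRCh38, written 5′ to 3′, with the differing bases in capitals. The NOTCH2 exon lies at chr1:120005329-120005588 and the NOTCH2NLA exon at chr1:146164751-146165010.
NOTCH2: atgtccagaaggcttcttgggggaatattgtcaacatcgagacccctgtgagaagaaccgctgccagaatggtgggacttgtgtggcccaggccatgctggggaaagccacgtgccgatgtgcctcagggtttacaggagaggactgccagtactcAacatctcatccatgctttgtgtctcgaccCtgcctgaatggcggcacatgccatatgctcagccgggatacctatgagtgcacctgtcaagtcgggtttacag
NOTCH2NLA: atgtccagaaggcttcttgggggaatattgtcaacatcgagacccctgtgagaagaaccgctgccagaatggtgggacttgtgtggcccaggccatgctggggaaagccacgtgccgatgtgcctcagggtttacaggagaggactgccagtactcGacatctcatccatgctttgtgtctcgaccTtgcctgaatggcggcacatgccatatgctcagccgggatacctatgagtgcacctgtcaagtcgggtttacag
The exons are 260 bases long and differ at 2 positions, an identity of 99.2%. Of the 11340 stretches of 50 bases in the NOTCH2 transcript, 527 (4.65%) also occur in a transcript of another gene. They were shared with 5 other genes, and most of them, 457, with the GENCODE gene AC239799.1. All 527 start in the first 4 of the 34 exons of NOTCH2, where they make up 54.3% of stretches. The share was 100% in exon 2, 60.8% in exon 1, 57.7% in exon 3 and 34.8% in exon 4. In NOTCH1, NOTCH3, JAG1, DLL1, DLL3, DLL4 and HEY1 no stretch was shared. JAG2 shared 7.28% of its stretches with the GENCODE gene AL512356.1, and NOTCH4 shared 0.747% with its neighbour GPSM3.

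**Figure D1:**
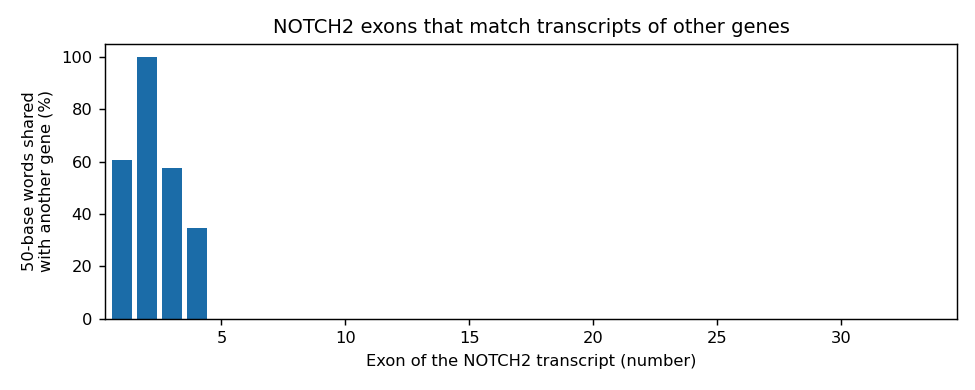
Share of 50-base stretches that also occur in a transcript of another gene (vertical axis, percent), for each exon of the NOTCH2 transcript in order (horizontal axis, exon number, 34 exons). Shared stretches start in exons 1 to 4, with 100% in exon 2, and the other 30 exons have none.

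CAMA1 cells expressed 3 of the 4 receptors, with NOTCH2 highest, NOTCH3 next and NOTCH1 far lower, while NOTCH4 was near the limit of detection. Of the 10 genes 6 were detected: NOTCH1, NOTCH2, NOTCH3, JAG1, JAG2 and DLL3. That is beside 67.4% of 19024 protein-coding genes and 54.9% of all entries. The median level of the 10 was 2.70 TPM, against 8.09 TPM over all protein-coding genes.

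NOTCH2 (chromosome 1, 119911553 to 120069703 on hg38) had 21578, 22045 and 21698 counts and stood at 184, 187 and 156 TPM in replicates 1, 2 and 3. It was lowest in replicate 3, and its mean of 176 ± 16.9 TPM ranked 947 among 19024 protein-coding genes. Without division by length its counts ranked 91, since the gene's 11825 exonic bases collect many reads. NOTCH2NL, the 1 partial copy listed in the table (chromosome 1, 146151908 to 146229032), held 3062, 2887 and 2925 counts, or 58.1, 54.3 and 46.8 TPM. It too was lowest in replicate 3. The division of reads between NOTCH2 and NOTCH2NL is uncertain. With the NOTCH2NL counts added to NOTCH2, a setting chosen after seeing the data, the log2 ratio of NOTCH2 over NOTCH3 was 1.10 in place of 0.91. With GENCODE exon lengths, a planned setting, this ratio was lower at 0.57, and NOTCH2 stood at 133 TPM in place of 176 TPM.

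NOTCH3 (chromosome 19, 15159633 to 15200981), a receptor also well known from vascular smooth muscle, had 6815, 7387 and 9743 counts and stood at 85.2, 91.7 and 103 TPM. It was highest in replicate 3, where NOTCH2 was lowest, and its mean was 93.2 ± 8.88 TPM. NOTCH1 (chromosome 9, 136494444 to 136545786) had 1319, 1461 and 1427 counts and 14.3, 15.7 and 13.1 TPM, with a mean of 14.4 ± 1.34 TPM. The ranges of NOTCH2, NOTCH3 and NOTCH1 did not overlap.

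NOTCH4 (chromosome 6, 32194843 to 32224067), a receptor best known from endothelium, had 7, 4 and 3 counts. Its 14 counts in all have an exact Poisson 95% interval of 7.65 to 23.5 counts, which covers counting error only. The level was 0.0103 ± 0.00521 TPM with the deposited length of 44221 bases, which adds up copies of the gene on alternate sequences of chromosome 6. With the 6745 bases on the main chromosome, a length chosen after seeing the data, it was 0.0653 ± 0.0332 TPM. NOTCH4 also shares 98 exonic bases with GPSM3 on the same strand, so some of these few counts are uncertain.

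**Figure D2:**
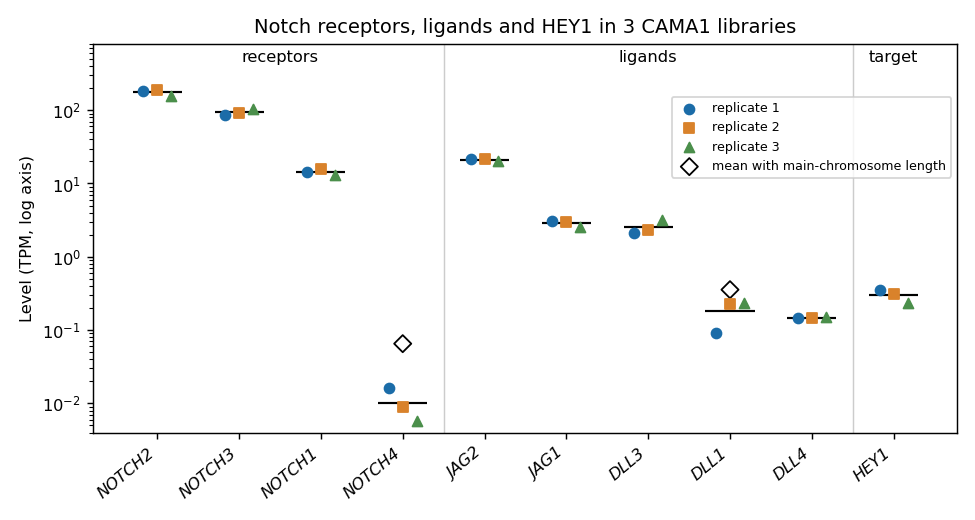
Level in TPM (vertical axis, log scale) of the 4 receptors, 5 ligands and HEY1 (horizontal axis) in the 3 CAMA1 libraries, 1 point a library, with a bar at the mean. Open diamonds give the mean of NOTCH4 and DLL1 with their length on the main chromosome alone. NOTCH2 at 156 to 187 TPM and NOTCH3 at 85.2 to 103 TPM stand above all other members, and NOTCH4, DLL1, DLL4 and HEY1 lie below 1 TPM.

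Within the receptor family NOTCH2 made up 64.9%, 63.5% and 57.4% of the summed TPM in replicates 1, 2 and 3, a mean of 61.9 ± 3.98%. NOTCH3 took 30%, 31.2% and 37.8%, and NOTCH1 5.05%, 5.35% and 4.80%. The log2 ratio of NOTCH2 over NOTCH3 was 1.11, 1.03 and 0.60, a mean of 0.91 ± 0.27 or 1.88-fold. NOTCH3 exceeded NOTCH1 by 2.70 ± 0.24 on the log2 scale, 6.48-fold, in 3 of 3 libraries. An exact permutation test that flips the signs of 3 values, two-sided, cannot give a p below 0.25, and it gave 0.25 for both ratios (0.321 after Benjamini-Hochberg adjustment over 9 ratios). So no ratio between members could pass 0.05.

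JAG2 was the main ligand transcript, and the Jagged ligands together stood above the Delta-like ligands. JAG2 (chromosome 14, 105140981 to 105168824) had 1265, 1242 and 1404 counts and stood at 21.9, 21.3 and 20.5 TPM, with a mean of 21.2 ± 0.701 TPM. This was the steadiest of the detected members, its highest library lying 1.07 times above its lowest. JAG1 (chromosome 20, 10637684 to 10674046), the other Jagged ligand, had 181, 177 and 180 counts and 3.05, 2.96 and 2.56 TPM. JAG2 exceeded JAG1 by 2.89 ± 0.09 on the log2 scale, 7.43-fold, in each library.

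DLL3 (chromosome 19, 39498917 to 39508481) differs from the other Delta-like proteins in that it does not activate Notch on neighbouring cells and can block it within its own cell. It had 49, 56 and 89 counts and 2.08, 2.35 and 3.18 TPM, with a mean of 2.54 ± 0.575 TPM. It was below JAG1 in replicates 1 and 2 and above it in replicate 3, so these neighbours in the order did not differ beyond their spread. Their log2 ratio, JAG1 over DLL3, was 0.19 ± 0.45 (exact permutation p = 0.5).

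The activating Delta-like ligands were barely present. DLL1 (chromosome 6, 170282206 to 170290609) had 6, 15 and 18 counts and 0.0915, 0.227 and 0.232 TPM. Its deposited length of 6620 bases counts a copy on an alternate sequence, and with the 3310 bases on the main chromosome its mean was 0.356 ± 0.154 TPM in place of 0.183 ± 0.0796 TPM. DLL4 (chromosome 15, 40929333 to 40939060), the Delta-like ligand of sprouting vessels, had 5, 5 and 6 counts, 16 in all with an exact Poisson 95% interval of 9.15 to 26.0, and a mean of 0.148 TPM. DLL1 lay below DLL4 in replicate 1 and above it in the other replicates, and their order changes with the library left out: the log2 ratio of DLL1 over DLL4 was 0.19 ± 0.71, but −0.02 without replicate 2 and −0.02 without replicate 3. With the length on the main chromosome DLL1 stood above DLL4 in 3 of 3 libraries, with a mean log2 ratio of 1.14.

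JAG2 took 80.3%, 78.9% and 77.0% of the summed ligand TPM in replicates 1, 2 and 3, a mean of 78.7 ± 1.66%. JAG1 took 10.6 ± 0.851%, DLL3 9.43 ± 2.25%, DLL1 0.682 ± 0.300% and DLL4 0.548 ± 0.0113%. The DLL1 share was 1.35% with lengths on the main chromosome and 1.41% with GENCODE exon lengths. The Jagged sum exceeded the Delta-like sum by 3.09 ± 0.37 on the log2 scale, 8.5-fold. The receptors together exceeded the ligands together by 3.39 ± 0.05 on the log2 scale, 10.5-fold, with values of 3.38, 3.44 and 3.35 in replicates 1, 2 and 3. Both had an exact permutation p of 0.25.

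**Figure D3:**
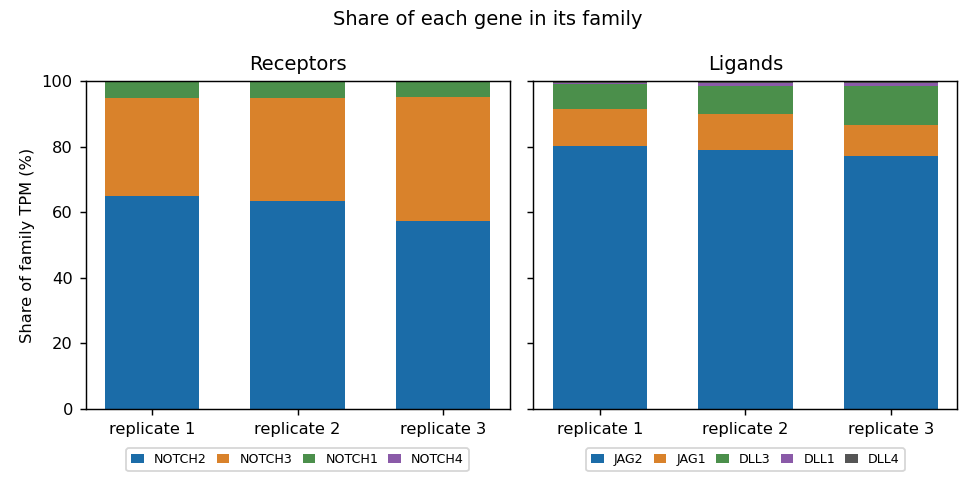
Share of each gene in the summed TPM of its family (vertical axis, percent), receptors on the left and ligands on the right, with 1 stacked bar for each library (horizontal axis). NOTCH2 takes 57.4% to 64.9% of the receptor level and JAG2 77.0% to 80.3% of the ligand level, while NOTCH4, DLL1 and DLL4 are too small to stand out.

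HEY1, a transcriptional repressor gene and a direct Notch target (chromosome 8, 79764010 to 79767863), was close to silent. It had 9, 8 and 7 counts and 0.352, 0.311 and 0.231 TPM, with a mean of 0.298 ± 0.0616 TPM. Its 24 counts in all have an exact Poisson 95% interval of 15.4 to 35.7. The other HEY genes were low too, HEY2 with 25, 8 and 12 counts (0.542 ± 0.351 TPM) and HEYL with 28, 17 and 17 counts (0.484 ± 0.178 TPM).

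Other genes listed as Notch targets, mostly of the HES and HEY families, ranged widely in level. Whether each responds to Notch in these cells was not tested. Of 10 further targets 6 were detected (60%, beside 67.4% of protein-coding genes), and their median was 4.31 TPM, below the 8.09 TPM of all protein-coding genes. HES1, HES4, NRARP and HES6 stood at 10 TPM or above, 4 of 10, as did 9108 of 19024 protein-coding genes. NRARP, whose product binds the Notch complex and dampens it, had 21.7, 19.8 and 18.3 TPM, and HES4 had 23.0, 21.4 and 30.5 TPM. HES6, whose product opposes HES1, stood at 12.0 ± 0.0652 TPM. HES5, a neural target, had 0, 1 and 2 counts. Pathway activity itself was not assayed.

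HES1, the best known target repressor, had 1341, 5030 and 5391 counts and 92.7, 345 and 314 TPM in replicates 1, 2 and 3. Replicate 1 stood 3.72 times below replicate 2. HES1 varied between libraries beyond the trended negative binomial dispersion (chi-square test with edgeR dispersion, adjusted p = 9.35e-21), as did 1.22% of 14453 genes tested. The test took that dispersion, estimated from these same libraries, as known. None of the detected receptors, ligands or other targets passed this test. The highest library stood above the lowest by 1.2 times for NOTCH1 and NOTCH2, 1.21 times for NOTCH3, 1.19 times for JAG1 and 1.07 times for JAG2. The spread was wider for HEYL (1.95 times, highest in replicate 1), DLL3 (1.53 times), HES4 (1.43 times) and HES2 (1.33 times), and narrower for NRARP (1.18 times) and HES6 (1.01 times). Early response genes were also lowest in replicate 1, in 9 of 9 detected against 23.9% of all detected entries. The luminal markers were lowest there in 6 of 7 detected, with sums of 7606, 8442 and 9383 TPM in replicates 1, 2 and 3. EGR1 had 16.7, 395 and 402 TPM and FOS 5.05, 99.2 and 77.4 TPM in replicates 1, 2 and 3, and the list of 10 summed to 335, 1375 and 1260 TPM. Their part in the spread of HES1 was not tested.

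**Figure D4:**
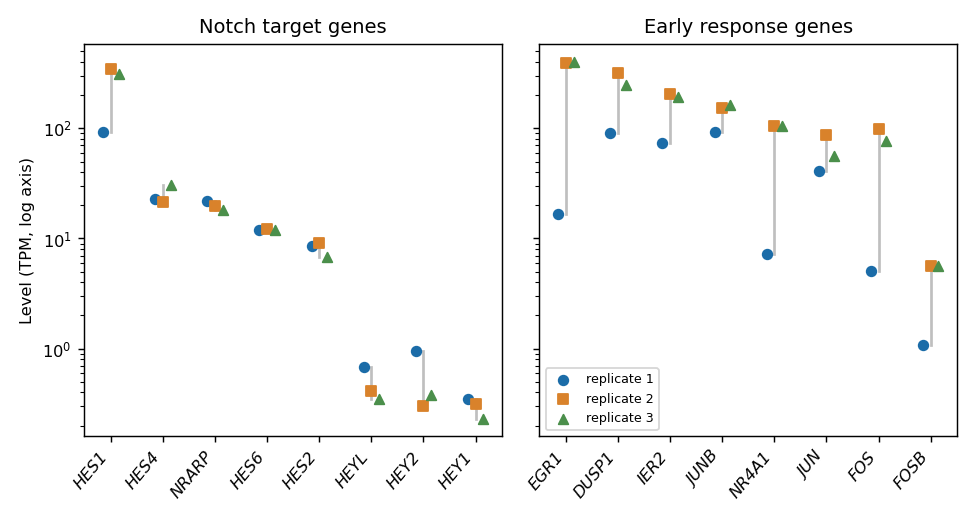
Level in TPM (vertical axis, log scale) of 8 genes listed as Notch targets (left) and 8 early response genes (right). Each point is 1 library, and a grey line covers the range. HES1 is at 92.7 TPM in replicate 1 and at 345 and 314 TPM in replicates 2 and 3, as EGR1 and FOS are also lowest in replicate 1, while NRARP and HES6 stay within a narrow range.

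The 250 bases before the transcription start of HES1, HES4 and HEYL are shown because they hold TGGGAA, the core that RBPJ binds, while their genes differ widely in level. The sequences are from RefSeq on GRCh38.p14, written 5′ to 3′ on the gene's strand, with TGGGAA and its reverse complement TTCCCA in capitals. They lie at chr3:194135898-194136147 (plus strand), chr1:1000098-1000347 (minus strand) and chr1:39639644-39639893 (minus strand).
HES1: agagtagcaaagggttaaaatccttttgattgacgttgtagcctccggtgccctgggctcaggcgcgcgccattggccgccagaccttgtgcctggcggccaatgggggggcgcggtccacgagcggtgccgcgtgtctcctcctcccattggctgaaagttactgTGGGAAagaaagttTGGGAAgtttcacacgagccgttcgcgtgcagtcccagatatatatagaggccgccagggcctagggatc
HES4: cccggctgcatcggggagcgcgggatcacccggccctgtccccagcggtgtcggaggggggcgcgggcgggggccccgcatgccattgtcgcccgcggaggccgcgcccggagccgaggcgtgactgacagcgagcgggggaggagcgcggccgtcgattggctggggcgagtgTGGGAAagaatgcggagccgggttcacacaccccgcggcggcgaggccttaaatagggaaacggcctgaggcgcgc
HEYL: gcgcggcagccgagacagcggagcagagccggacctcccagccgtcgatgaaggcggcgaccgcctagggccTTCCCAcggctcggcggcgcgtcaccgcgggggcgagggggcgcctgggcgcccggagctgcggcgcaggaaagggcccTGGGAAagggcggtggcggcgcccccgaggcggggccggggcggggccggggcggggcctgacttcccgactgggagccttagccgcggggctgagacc
In HES1 the core begins 84 and 70 bases before the start, in HES4 76 bases before it, and in HEYL 178 bases before it on the opposite strand and 99 bases before it on the gene's strand. On either strand, in the 250 bases before to 50 after the start, TGGGAA occurred in 24.0% of 35116 promoters and at least 2 times in 3.8%. The longer word GTGGGAA, which contains it, occurred in 6.25%. Of 9 further targets with a promoter sequence, HES1, HES4, HES5, HEY2 and HEYL held TGGGAA, and each of these also held GTGGGAA. Of the 7 receptors and ligands with one, NOTCH1 to NOTCH4, JAG1, JAG2 and DLL4, none held TGGGAA. Of 47 other pathway genes 38 had a promoter sequence, and 7 of these held TGGGAA, of which only SPEN held GTGGGAA. DLL1, DLL3, HEY1 and DTX1 were not searched. The core was thus found before genes as different in level as HES1 (251 TPM) and HEYL (0.484 TPM). The count table's models of HES1, HES4 and HEYL begin upstream of the RefSeq start, so part of each window is transcribed in those models.

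The machinery that makes, cuts and reads Notch receptors was detected almost in full. Of 57 pathway genes outside the 10 members, 50 were detected, beside 67.4% of protein-coding genes. The 57 include the 10 further targets (6 detected) and 3 atypical ligand genes (1 detected). In the remaining lists only the Mastermind gene MAML2 was not detected. The median of the 57 was 28 TPM, and 43 reached 10 TPM. All 6 gamma-secretase genes were detected, with a median of 109 TPM, and 3 stood near or above NOTCH2: APH1A at 374 ± 8.45 TPM, the substrate receptor gene NCSTN at 172 ± 2.36 TPM and PSENEN at 169 ± 4.09 TPM. PSEN2, which encodes a catalytic subunit, was lower at 39.6 ± 4.23 TPM. The protease genes ADAM10 and ADAM17, which make the first cut after ligand binding, stood at 65.3 ± 0.959 and 44.5 ± 3.68 TPM, and FURIN, which cleaves the receptor on its way to the surface, at 39.8 ± 3.48 TPM.

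Genes that shape the receptor and its ligands were mostly present as well. Of the Fringe glycosyltransferases, which alter how receptors answer Jagged and Delta ligands, RFNG stood at 67.4 ± 6.08 TPM and LFNG at 32.2 ± 1.75 TPM, while MFNG had 12, 14 and 35 counts (0.873 ± 0.455 TPM). POFUT1, which adds the fucose that Fringe extends, stood at 28 ± 2.06 TPM. Of the ubiquitin ligases that make ligands active, MIB1 was highest at 56.2 ± 2.11 TPM, and NEURL1 was low at 2.17 ± 0.370 TPM. MIB2 had 15.2, 16.4 and 25 TPM, highest in replicate 3. It varied beyond the negative binomial dispersion (chi-square test with edgeR dispersion, adjusted p = 0.00588), as did 1.22% of 14453 genes tested. As for HES1, that dispersion was estimated from these same libraries and taken as known. The atypical ligand genes DLK1 and DNER were not detected, and DLK2 stood at 2.43 ± 0.430 TPM.

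In the nucleus RBPJ stood at 54.0 ± 2.94 TPM. Of its Mastermind coactivators MAML1 stood at 54.6 ± 2.85 TPM and MAML3 at 3.73 ± 0.325 TPM, whereas MAML2 had 0, 1 and 0 counts, which was not detectable at this depth. The acetyltransferase genes EP300 and CREBBP stood at 40.2 ± 1.63 and 43.0 ± 1.69 TPM. All 9 corepressor genes were detected (median 51.7 TPM), among them SPEN at 25 ± 0.766 TPM and NCOR1 at 37.7 ± 0.558 TPM. All 8 genes of receptor turnover were detected (median 27.6 TPM), with NUMB, an inhibitor of Notch, at 60.9 ± 3.42 TPM and FBXW7, which marks the active receptor for destruction, at 13.2 ± 0.904 TPM.

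**Figure D5:**
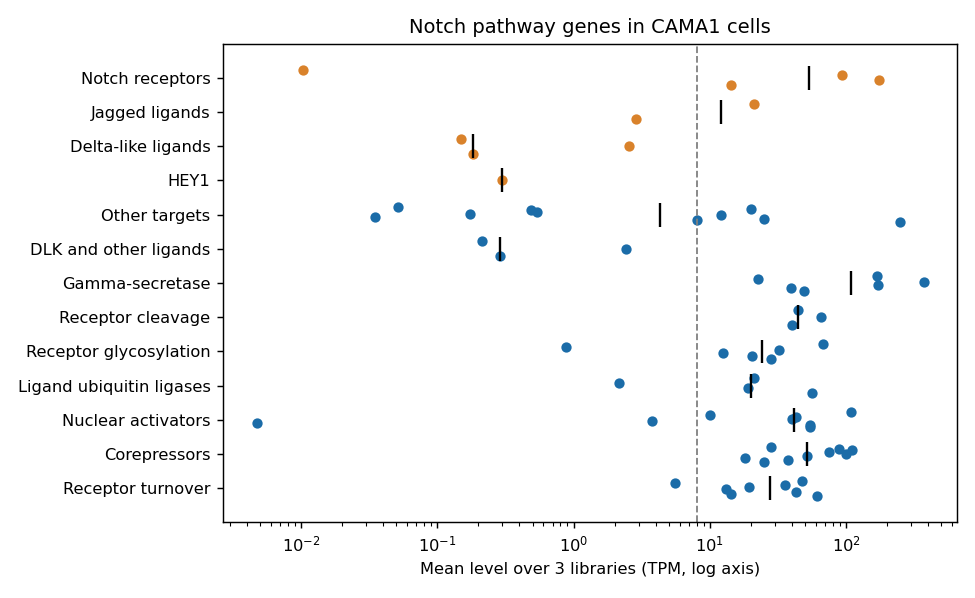
Mean level over 3 libraries in TPM (horizontal axis, log scale) of each gene in 13 groups of the Notch pathway (vertical axis), receptors, ligands and HEY1 in orange and other pathway genes in blue. Black bars are group medians and the dashed line is the median of all protein-coding genes, 8.09 TPM. With the deposited lengths the gamma-secretase group has the highest median, 109 TPM, and Delta-like ligands the lowest, 0.183 TPM. The lowest place depends on the length of DLL1, the median Delta-like gene. With lengths on the main chromosome DLL1 stands at 0.356 TPM, above HEY1 at 0.289 TPM and DLK1 at 0.282 TPM. DLK1 is the median gene of the DLK and other ligands group, which is then lowest.

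Between replicates, NOTCH1, NOTCH2, NOTCH3 and DLL3 varied beyond Poisson sampling, and JAG1 and JAG2 did not pass. These are 4 of 6 members tested, while 41.6% of all 14453 genes tested varied and 28 of the 50 tested pathway genes did. The edgeR-scaled chi-square test gave an adjusted p of 1.06e-59 for NOTCH2, 3.58e-47 for NOTCH3, 0.000354 for NOTCH1, 0.0432 for DLL3, 0.509 for JAG1 and 0.875 for JAG2. Against the spread usual for genes of like abundance (trended negative binomial dispersion), 0 of the 6 passed. Over all 14453 genes tested 1.22% passed, so 0 of 6 does not set the members apart. Unadjusted p-values of the chi-square test with edgeR dispersion ran from 0.106 for NOTCH3 to 0.978 for JAG2, none under 0.05. Without replicate 3 only NOTCH3 passed the Poisson test (adjusted p = 1.91e-05), and NOTCH2 (0.0557), NOTCH1 (0.0539) and DLL3 (0.777) did not. Without replicate 1 DLL3 did not pass (0.131), and without replicate 2 NOTCH1 did not (0.338). DLL3 also missed the threshold with library totals in place of TMM (0.0568) and with no filter on low counts (0.0527). In levels, 4 of the 6 were lowest in replicate 3, where 50.8% of all detected entries had their lowest TPM. Separate cultures are not stated for the biological replicates, so these p-values measure the spread of the 3 libraries, which may be technical.

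The protein-coding genes outside the lists whose TPM over the 3 libraries lay closest to NOTCH2 were SLC7A2, PMPCA and GTF3A, at Euclidean distances of 0.0606, 0.0787 and 0.0811 on the log2 scale. Closest to JAG2 were ING5, ZKSCAN5 and POLR3A, at 0.0191, 0.0246 and 0.0264. Over 3 libraries of 1 group this likeness is mostly one of level.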

How the data were processed

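Poly-A RNA of 3 CAMA1 libraries was prepared with a stranded kit from RNA with an integrity score of at least 8, per the labels' protocols. The authors deposited expected counts per gene with a length per gene: 83.0%, 83.3% and 82.9% of non-zero values were whole within 1e-08, so some reads had been divided between features. The submitters' processing notes name hg38, TopHat and featureCounts of Subread; their versions and their settings for strand and multiple matches are not given in the sources used here. TPM was computed from the deposited counts and lengths over all entries.

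To test variation between libraries, the expected counts were rounded to integers and scaled with TMM in edgeR 4.0.16 (R 4.3.3; factors 1.01, 1.00 and 0.990) after its filter on low counts, and each gene was tested by chi-square against Poisson sampling with Benjamini-Hochberg adjustment over 14453 genes at 0.05. In simulated Poisson counts with the depths of these libraries, 86.6% of genes changed 1.5-fold in 1 library and 100% of those changed 4-fold were recovered. The changed genes were not drawn from those with few counts. Spread beyond Poisson sampling and the negative binomial model were not simulated. Ratios used log2 with 0.01 TPM added and an exact sign-flip test. Genes matched RefSeq by symbol (23758) or older symbol (1592); 1135 did not match. Alternatives were other count minimums, CPM, GENCODE 29 exon lengths, 1 TPM added, DESeq2 1.42.0 size factors, library totals, no filter, a negative binomial model and each library left out. Exon lengths on the main chromosome and adding NOTCH2NL to NOTCH2 were chosen after seeing the data. Genes were named from the members, the pathway and marker lists and the 3 genes nearest NOTCH2 and JAG2. Genes that overlap a member or share stretches with it were named too. Members and lists were chosen with earlier results of these data known. Intervals cover counting error only. The level of 1 pathway gene is not reported here.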

Additional observations from a re-analysis of the deposited data

How the results depend on the processing

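All 10 members had at least 1 count in every library, against 6 with at least 10, and without 1 library the number with at least 10 was 6 to 7. NOTCH2 took 70% of the receptor level on CPM and 56% with GENCODE exon lengths, against 61.9%, and JAG2 took 83.3% of the ligand level on CPM, against 78.7%. The log2 ratio of DLL1 over DLL4 ran from −0.02 to 0.60 with 1 library left out. The other 8 ratios kept their sign under every alternative run, though JAG1 over DLL3 fell to 0.01 without replicate 1. Genes varying between replicates numbered 177 under the negative binomial model, against 6018 beyond Poisson sampling, and 1174 to 5435 without 1 library; members varying numbered 0 and 1 to 3, against 4, and 3 with library totals or with no filter on low counts. No pairing of samples between groups was possible because there is 1 group, while the ratios between members were paired within each library. Depth limits NOTCH4, DLL1, DLL4 and HEY1, with under 20 counts in each library.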
